A study of Mus musculus with 6 samples.

Results

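The 35 genes described here encode transcription factors that set up or maintain the cell types of the pancreatic islet, chosen by gene name from the 48397 genes of the deposited count tables. They were sorted by textbook role into 8 beta-cell factors, 9 factors shared by all endocrine islet cells, 3 alpha-cell factors, 1 delta-cell factor, 8 factors of endocrine progenitors and duct, and 6 foregut or more widely used factors. The study sequenced polyadenylated RNA of whole islets, labelled as mixed cells, from wild-type C57B6 mice. After overnight recovery, islets were kept for 24 h either with DMSO as the control or with recombinant mouse prolactin at 500 ng/mL, with 3 libraries in each condition. The series title places the comparison in a study of prolactin receptor signalling, beta-cell chromatin and the factor OVOL2. Nothing in the labels tells if the 3 replicates of a condition were different animals or cultures, so a p-value here speaks only for the spread among these libraries, and that spread may be technical. Age and sex of the mice are not given in the labels.

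Islet endocrine cells arise from progenitors that switch on Neurog3, after which combinations of homeodomain, basic leucine zipper and zinc finger factors fix each cell's hormone. Pdx1, Nkx6-1 and Mafa hold the mature beta-cell state, in which insulin and the glucose-sensing machinery are made. The Irx factors and Pou3f4 mark the glucagon-producing alpha cell in the adult mouse, and Hhex is needed for the somatostatin-producing delta cell. Prolactin acts through its receptor, the kinase JAK2 and STAT5, and in pregnancy it drives beta-cell adaptation.

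Per-library read counts assigned to genes ran from 230833584 to 530296257, the largest being control replicate 1. Prolactin-responsive genes followed the labels: Cish, a STAT5 feedback inhibitor, stood at 8.16 ± 0.58 CPM (read counts scaled to equal library totals, mean ± SD, n = 3) in control and 39.8 ± 2.89 CPM in prolactin (n = 3). Insulin transcripts marked the tissue as islet, with Ins2 at 79029 ± 9802 CPM in control. Prolactin replicates 2 and 3 lay closer together than any other pair of libraries. Their median squared difference was 2.44 times that of counting alone, against 5.94 to 17.3 for the other pairs. This measure takes the counted reads as independent, and both mates of a pair may be counted. It therefore cannot tell if prolactin replicates 2 and 3 are separate samples. They were kept as 3 prolactin samples together with replicate 1. A fit on the sum of replicates 2 and 3 is given for the named genes where it changes a call.

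Promoter windows of the RefSeq table (assembly GRCm38.p6, 250 bases before to 50 after a start site) were found for 27 of the 35 genes, in 40 windows. The 120 bases just before the RefSeq start site are shown for 4 genes whose libraries did not overlap between the conditions. They are in lower case and on the gene's strand. Capitals mark CAGATG, an E-box bound by NEUROG3 and NEUROD1, and the CCAAT box, read on either strand. Isl1 and Rfx3, whose libraries did not overlap either, had windows too but are not shown. The window of Isl1 held CCAAT, and that of Rfx3 held none of the motifs searched. In the annotation used for counting, Pou3f4 starts at base 110814280, so its marked boxes lie inside the counted gene. A stretch of 30 bases at the start site of Cish follows, in which capitals mark the STAT5 motif TTCNNNGAA.
Irx2, chr13:72628700-72628819, plus strand: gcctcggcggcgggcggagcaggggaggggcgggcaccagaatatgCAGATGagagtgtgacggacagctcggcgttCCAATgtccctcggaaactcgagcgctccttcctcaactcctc
Pou3f4, chrX:110814259-110814378, plus strand: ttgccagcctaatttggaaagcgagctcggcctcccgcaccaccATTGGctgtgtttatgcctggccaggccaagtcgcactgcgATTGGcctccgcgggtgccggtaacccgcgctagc
Neurog3, chr10:62132970-62133089, plus strand: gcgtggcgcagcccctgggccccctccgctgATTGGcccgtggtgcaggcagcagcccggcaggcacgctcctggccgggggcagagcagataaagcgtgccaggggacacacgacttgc
Foxa3, chr7:19023540-19023659, minus strand: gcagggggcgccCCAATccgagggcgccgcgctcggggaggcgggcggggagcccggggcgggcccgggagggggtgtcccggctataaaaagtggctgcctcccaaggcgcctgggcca
Cish, chr9:107296654-107296683, plus strand: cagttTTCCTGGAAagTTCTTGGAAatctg

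The Cish stretch held 2 copies of the STAT5 motif, but it is shorter than a window and cannot be compared with the windows. Of the 40 windows, which belong to 27 of the 35 factors, 0 held this motif, beside 8.30% of all 32851 windows in the table. Factors without a window, Irx1, Mafa and Sox9 among them, were not searched. CCAAT stood in 21 of the 40 windows (52.5%, 37.4% of all windows), those of 18 genes. CAGATG stood in 4 windows (10% against 17.2%), those of Etv1, Irx2, Nkx2-2 and Prox1. The forkhead motif TGTTTAC, searched like the others on both strands, was in the windows of Foxa1 and Myt1 (5% against 3.65%). TAATTA, a homeodomain core, was in those of Hnf4a, Mlxipl and Rfx6 (7.5% against 5.29%), and the OVOL core CCGTTA in that of Foxo1 alone (2.5% against 2.76%). The windows of these factors were rich in CpG, with a median of 17.5 CpG dinucleotides against 7 over all windows and a median GC content of 59.2% against 52.7%. Windows of the same gene can overlap and are not independent, and a match is only a run of letters.

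Levels were first set side by side per length, as control CPM divided by the kilobases of annotated exon. Mafa, the activator of insulin transcription in mature beta cells, stood first at 182 ± 27.2 CPM per kb (SD, n = 3), but the gene model used for counting gives it 1 exon of 1080 bases, so that reads of its untranslated ends are left out and its place is uncertain. Nkx6-1 (104 CPM per kb), which represses alternative fates in beta cells, and the zinc finger factor Insm1 (83.4 CPM per kb) came next. Pdx1, a master factor of pancreas and beta cell, and Neurod1, a basic helix-loop-helix activator of insulin, were level with each other at 64.3 and 63.6 CPM per kb. Rfx6, Pax6, Foxa2, Nkx2-2 and St18 lay together between 30.8 and 35.2 CPM per kb, where neighbours in the order were not apart beyond their spread.

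The alpha-cell factors were far lower in this whole-islet RNA, with Irx2 at 7.85, Irx1 at 6.52 and Pou3f4 at 1.14 CPM per kb, and the delta-cell factor Hhex stood at 9.34. The progenitor factors spread widely, from Prox1 (11.6 CPM per kb), Sox4 (8.87) and Gata6 (6.56) to Neurog3 (3.10), Sox9 (1.605), Gata4 (0.395) and Onecut1 (0.116). Sox4, Onecut1 and Neurog3 share 54.6%, 52.8% and 17.7% of their exon bases with other genes, so their levels are uncertain. Pax4, a homeodomain factor of the early beta lineage, was the lowest of the 35, with 17, 12 and 10 reads in the control libraries and 4, 0 and 6 in the prolactin libraries. As CPM these were 0.032, 0.044 and 0.037 in control and 0.017, 0 and 0.023 in prolactin. Every prolactin library lay below every control, as for 10.4% of all tested genes, but Pax4 had too few reads to be tested. The 0 reads in prolactin replicate 2 allow a level of up to 0.0129 CPM by a limit of 3 counts, which covers counting error only. In whole islets, a gene's level depends on both how many cells of its type are present and how much RNA each makes, and fewer cells of a type and less RNA per cell cannot be told apart.

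**Figure D1:**
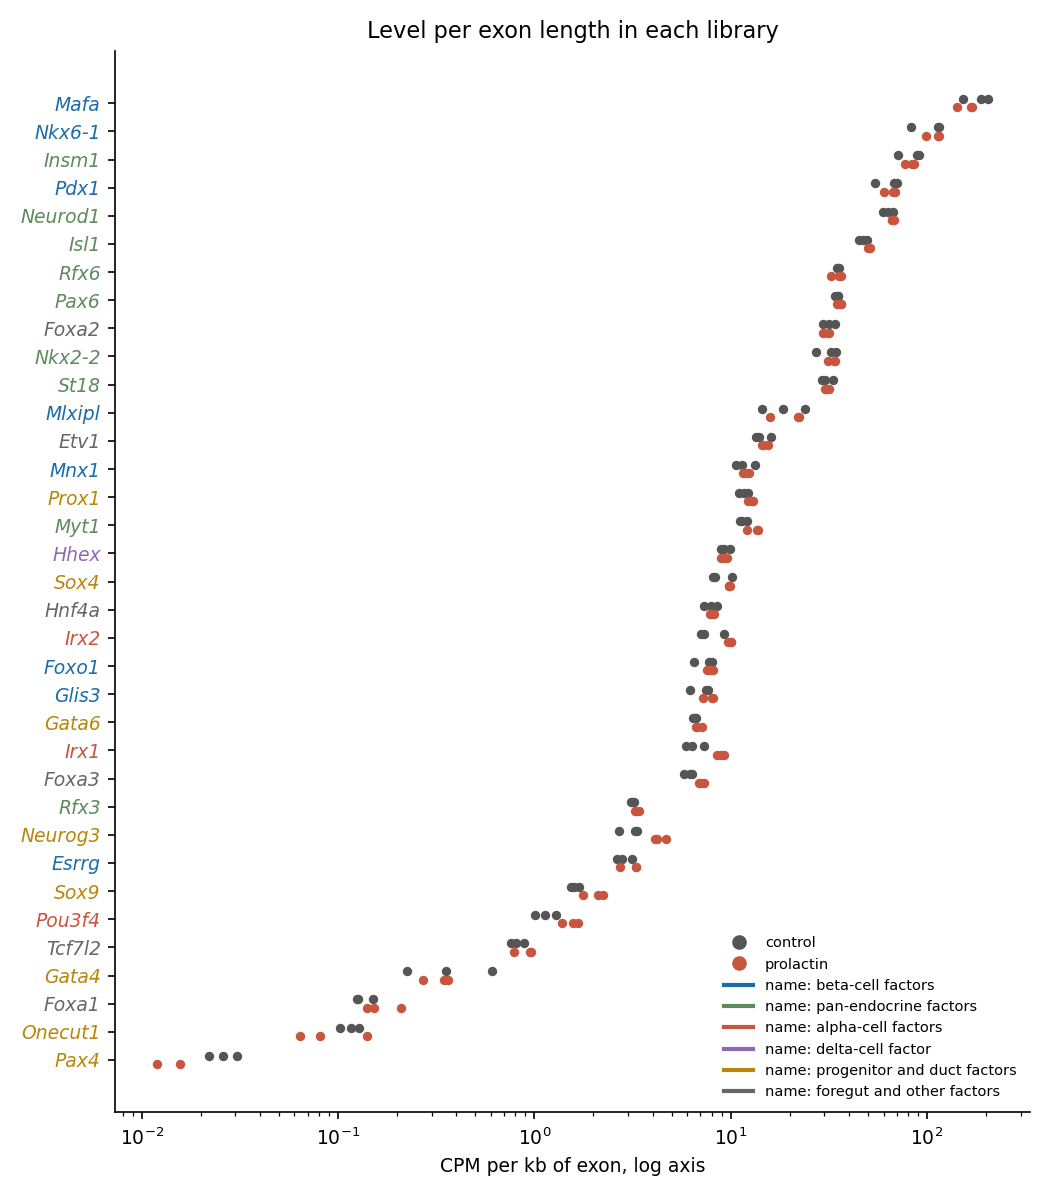
Level of each of the 35 factors per exon length (CPM per kb, log axis) in the 3 control and 3 prolactin libraries, ordered by the control mean and coloured by role. Points are libraries; the 0 of Pax4 in prolactin replicate 2 is not drawn, and the beta-cell and shared endocrine factors fill most of the upper rows while Pou3f4, Gata4, Foxa1, Onecut1 and Pax4 lie near the bottom.

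Prolactin against control was the single comparison of the design, and 34 of the 35 factors had enough reads to be tested, all but Pax4. With p-values of edgeR's quasi-likelihood test adjusted by Benjamini-Hochberg over 23924 genes, no factor came under the threshold of 0.05: 0 of 34 were higher, where 0.652% of all tested genes were called higher, and 0 of 34 were lower, where 0.104% were. At an unadjusted p under 0.05 in the same test, 7 of 34 were higher (20.6%, beside 7.78% of all tested genes) and 0 were lower (6.68% of all tested genes). The 7 were the alpha-cell factors Irx1, Irx2 and Pou3f4, the progenitor factors Neurog3 and Sox9, Foxa3 and Myt1. All 3 prolactin libraries lay above all 3 control libraries for 8 of 34 factors (23.5%, beside 11.3% of all tested genes), namely those 7 without Myt1, together with Isl1 and Rfx3. All 3 lay below for 0 of 34 tested factors, beside 10.4% of all tested genes.

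DESeq2 called 5 of 34 factors higher (14.7%, beside 4.1% of its 18913 genes) and 0 lower (1.6%), the 5 being Irx1, Irx2, Pou3f4, Neurog3 and Sox9. The authors' deposited table holds the values of this same DESeq2 fit to the same libraries, so it adds no separate evidence for the 5. It gives log2 changes of 0.45 for Irx1 (DESeq2 adjusted p = 9.2e-05) and 0.49 for Neurog3 (adjusted p = 0.00028). Limma-voom called 0 of 34 higher (0.652% of all tested genes) and 0 lower (0.0878%). The tested factors had a median log2 change of 0.07, and 26 of 34 were positive, while 50.1% of all tested genes were positive. With 1 library left out, this median ran from 0.04 (without control replicate 1) to 0.10 (without control replicate 3). Without control replicate 1, the positive beta-cell factors fell from 7 to 2 of 8.

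**Figure D2:**
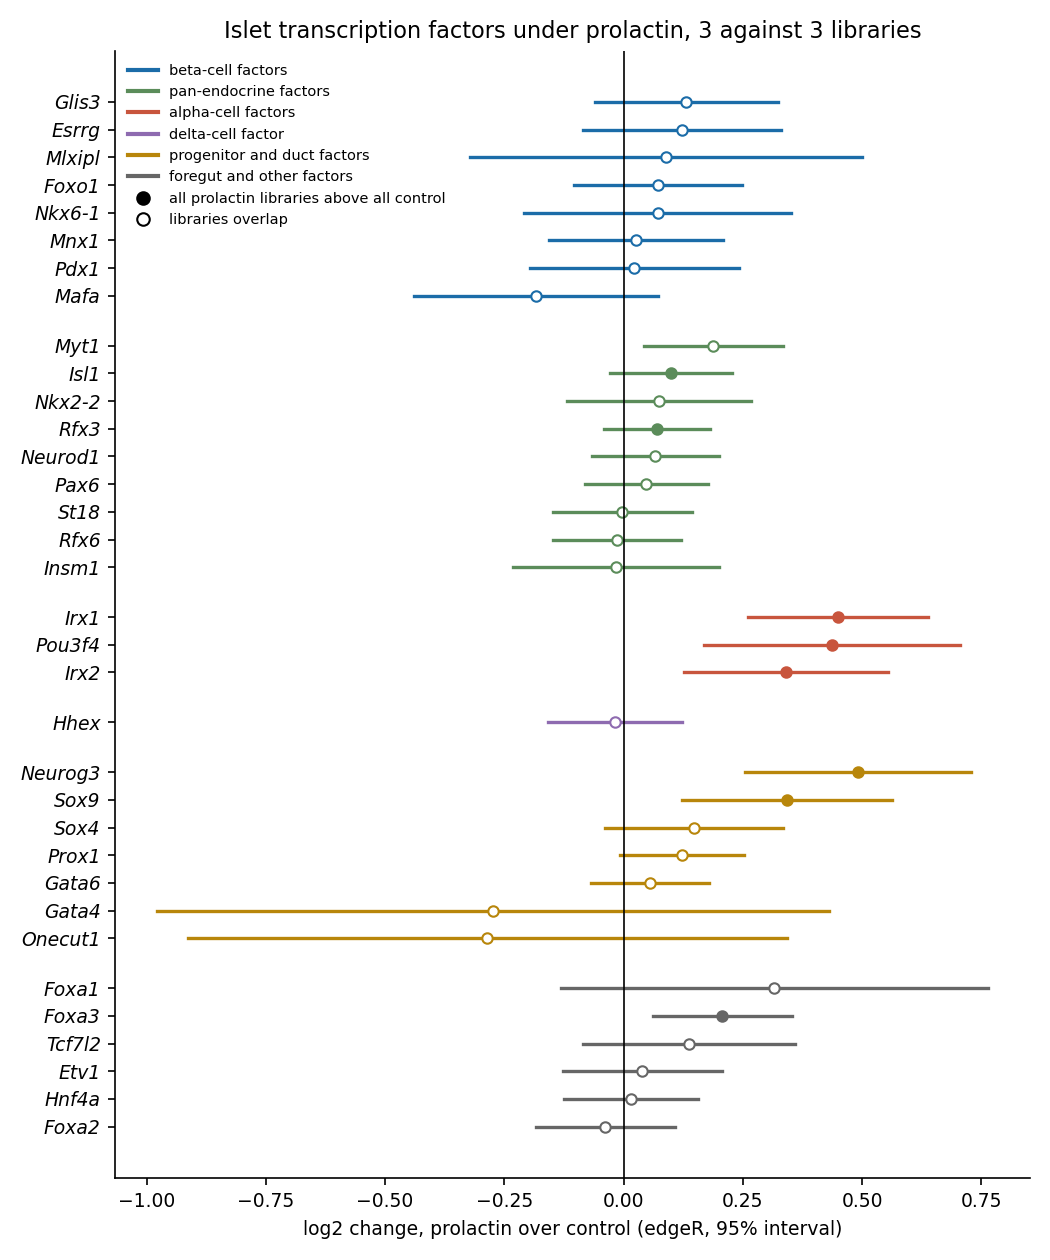
Log2 change of each tested factor, prolactin over control, with its 95% confidence interval, grouped by role. Most of the 8 beta-cell and 9 shared endocrine factors lie close to 0, and the 3 alpha-cell factors, Neurog3 and Sox9 lie to the right, with intervals above 0, as do the smaller changes of Foxa3 and of Myt1, a shared endocrine factor.

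None of the 8 beta-cell factors passed the test. The SE of their log2 changes ran from 0.078 (Foxo1) to 0.182 (Mlxipl), beside a median of 0.083 over the tested factors. Mafa (mm10, chr15:75746843-75747922, minus strand) stood at 164, 221 and 203 CPM in control replicates 1 to 3 and at 153, 182 and 184 CPM in the prolactin replicates. The highest 2 libraries were controls, but control replicate 1 lay among the prolactin libraries. Its log2 change was -0.18 (SE 0.113, 95% interval -0.44 to 0.07, edgeR adjusted p = 0.507), an interval that runs from 0.738 to 1.05 of the control level. The value was -0.30 without control replicate 1, -0.09 without control replicate 2 and -0.11 without prolactin replicate 1, and it passed in none of these. Pdx1 stood at 117, 152 and 147 CPM in control and at 131, 145 and 147 CPM in prolactin. The 2 conditions covered the same range, and the log2 change was 0.02 (interval -0.20 to 0.24, edgeR adjusted p = 0.937). Nkx6-1 stood at 260, 362 and 355 CPM in control and at 309, 355 and 362 CPM in prolactin, again overlapping, with a log2 change of 0.07 (interval -0.21 to 0.35).

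The other 5 beta-cell factors had log2 changes between 0.03 and 0.13, with overlapping libraries in each. They were the homeodomain factor Mnx1 (0.03), the nuclear receptor Esrrg of mature oxidative metabolism (0.12), Mlxipl, the glucose-sensing factor ChREBP (0.09), the insulin-signalling forkhead factor Foxo1 (0.07), and Glis3, an activator of insulin transcription (0.13). Among the 8, Mlxipl was the least even, at 79.7, 102 and 132 CPM in control and 87.6, 124 and 122 CPM in prolactin. For these 8 factors, the 95% interval lay within 1.5-fold of the control level in both directions. Control replicate 1 was the lowest control library for 20 of the 35 factors, where it was lowest for 31.5% of all tested genes. Without it, 6 of the 8 beta-cell factors had a negative log2 change and 2 a positive one (Esrrg and Glis3), the signs of Pdx1 (-0.08), Nkx6-1 (-0.07), Mnx1 (-0.04), Mlxipl (-0.07) and Foxo1 (-0.01) having turned.

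Genes that the beta-cell factors are known to switch on gave the same count: of 15 target genes, all tested, 0 were called higher (0.652% of all tested genes) and 0 lower (0.104%), with a median log2 change of -0.04 beside 0.00 for all tested genes. The lowest p-values were those of Slc2a2, the glucose transporter of mouse beta cells (-0.30, edgeR adjusted p = 0.323), Ero1lb, an oxidase of insulin folding (-0.15, adjusted p = 0.341), Iapp, the co-secreted amylin (-0.15, adjusted p = 0.447), and the granule zinc transporter Slc30a8 (0.14, adjusted p = 0.549). Slc2a2, Ero1lb and Iapp, 3 of the 15, were lower in all 3 prolactin libraries than in any control library, beside 10.4% of all tested genes.

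The 9 factors shared by endocrine cells also gave 0 calls, with log2 changes from -0.02 to 0.19 and all intervals within 1.5-fold. Pax6, needed for hormone gene transcription in several islet cell types, stood at 410, 395 and 414 CPM in control and 406, 428 and 425 CPM in prolactin. Rfx6, a winged-helix factor of endocrine differentiation, stood at 142, 141 and 139 CPM and 129, 146 and 143 CPM. In both genes, the conditions overlapped and the control libraries lay close together, with coefficients of variation of 2.44% for Pax6 and 0.915% for Rfx6. St18, a zinc finger factor of the Myt family, was at a log2 change of 0.00 (edgeR adjusted p = 0.990), and Insm1 at -0.02, Nkx2-2 at 0.07 and Neurod1 at 0.07.

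Isl1, a LIM-homeodomain factor of all islet endocrine types, stood at 197, 178 and 187 CPM in control and 203, 200 and 199 CPM in prolactin. Rfx3, a factor of cilia and endocrine maturation, stood at 34.8, 34.3 and 35.4 CPM and 35.7, 37.7 and 36.3 CPM. For both, every prolactin library lay above every control library, but the steps were small, at 0.10 (edgeR adjusted p = 0.465) and 0.07 (adjusted p = 0.561) on the log2 scale. Myt1, a zinc finger factor of the endocrine programme, stood at 77.3, 78.5 and 84.0 CPM in control and 83.8, 95.1 and 94.3 CPM in prolactin. Prolactin replicate 1 lay just below the highest control, and the log2 change was 0.19 (SE 0.065, edgeR adjusted p = 0.233).

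All 3 alpha-cell factors had higher values in every prolactin library than in any control library, as did 11.3% of all tested genes. Irx1, an Iroquois homeodomain factor, stood at 17.4, 14.98 and 14.01 CPM in control and 20.3, 21.3 and 21.8 CPM in prolactin. The conditions did not overlap, and control replicate 1 lay nearest to the prolactin libraries. Its mean was 15.5 ± 1.76 CPM in control and 21.1 ± 0.77 CPM in prolactin (SD, n = 3 each), a log2 change of 0.45 (SE 0.083, interval 0.26 to 0.64, 1.36-fold, edgeR adjusted p = 0.0532). This value lies just outside the threshold. Leaving out control replicate 1 put it at an edgeR adjusted p of 0.0209, and leaving out control replicate 3 at 0.049. Leaving out control replicate 2 (0.163) or prolactin replicates 1 (0.121), 2 (0.241) or 3 (0.242) moved it farther from the threshold, as did summing prolactin replicates 2 and 3 (0.253).

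Irx2, its neighbour 665096 bases away on chromosome 13 (mm10: Irx1 at chr13:71957921-71963723 on the minus strand, Irx2 at chr13:72628820-72634198 on the plus strand), stood at 30.2, 23.2 and 23.9 CPM in control and 31.8, 33.0 and 33.0 CPM in prolactin. Control replicate 1 was close to the prolactin libraries and the other controls well below. The log2 change was 0.34 (SE 0.095, interval 0.13 to 0.55, edgeR adjusted p = 0.154), and it passed without control replicate 1 (adjusted p = 0.0144). With any other library left out, its adjusted p lay between 0.161 and 0.434, and it was 0.447 with prolactin replicates 2 and 3 summed. Pou3f4, a POU-domain factor bound at the glucagon promoter, stood at 3.76, 3.30 and 2.95 CPM in control and 4.06, 4.88 and 4.62 CPM in prolactin. The libraries were separate, with prolactin replicate 1 near control replicate 1, and the log2 change was 0.44 (SE 0.119, interval 0.17 to 0.71, edgeR adjusted p = 0.147).

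Alpha-cell markers, like these 3 factors, were higher in control replicate 1 than in the other controls. Gcg, the glucagon gene, stood at 35374, 26650 and 22240 CPM in control and 34503, 33640 and 33236 CPM in prolactin. Control replicate 1 was above all prolactin libraries and the other controls below them, and the log2 change was 0.27 (edgeR adjusted p = 0.491). Over 6 alpha-cell markers, the summed level ran from 24255 to 38422 CPM in control and from 35950 to 37340 CPM in prolactin. Of these 6, 0 were called higher (0.652% of all tested genes) or lower (0.104%) by edgeR. Likewise, 0 were called by DESeq2 (4.1% and 1.6% of its genes) and 0 at an unadjusted edgeR p under 0.05 (7.78% and 6.68%). Irx1 per 1000 CPM of Gcg was 0.493, 0.562 and 0.630 CPM in control and 0.589, 0.632 and 0.657 CPM in prolactin, so the libraries overlapped. Irx2 per 1000 CPM of Gcg overlapped as well, at 0.853 to 1.07 CPM in control and 0.923 to 0.993 CPM in prolactin. Gcg had the largest log2 change of the 6 markers, which ran from -0.03 to 0.27 with a median of 0.12. Ratios to the other markers were not taken, so the overlap is shown for Gcg alone. The part of the alpha-cell share of the RNA in the values of Irx1, Irx2 and Pou3f4 was not tested. The ratios to Gcg were chosen after the genes' values were known.

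**Figure D3:**
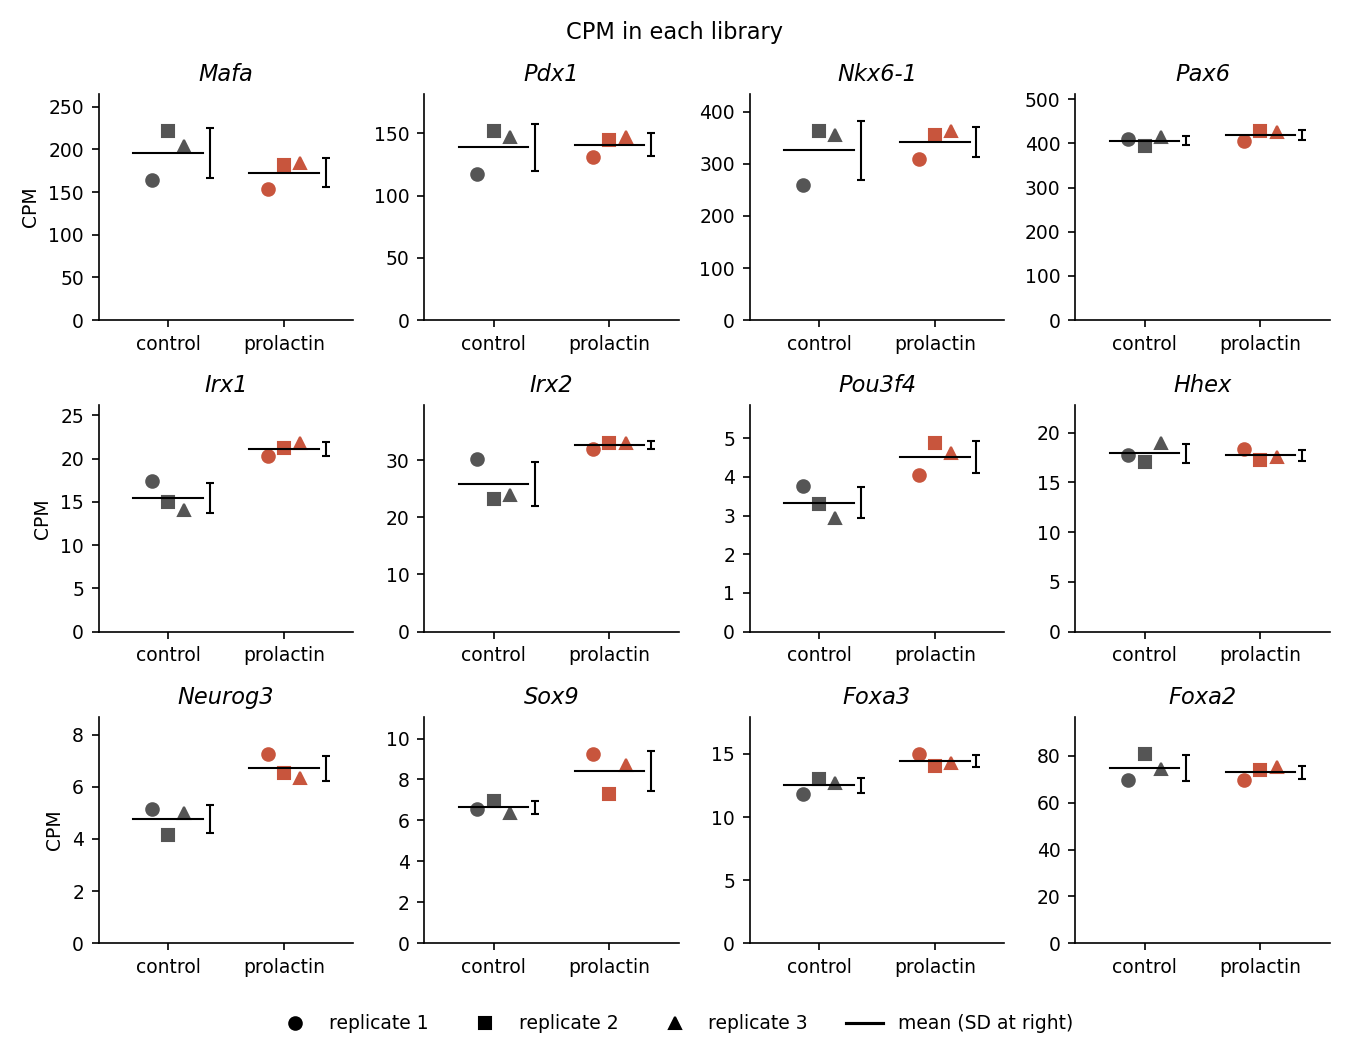
CPM in each control and prolactin library for selected factors, 1 panel a gene, each axis starting at 0, with the mean as a line and the SD as a bar beside it. Mafa, Pdx1, Nkx6-1, Pax6, Hhex and Foxa2 overlap between conditions, while Irx1, Irx2, Pou3f4, Neurog3, Sox9 and Foxa3 have all prolactin points above all control points.

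A list of 33 further islet and pancreas transcription factors, none of them among the 35, was read in the same way. Of these, 32 were tested, 1 was called higher (0.652% of all tested genes) and 0 lower (0.104%), with a median log2 change of 0.09 and 24 positive. At an unadjusted edgeR p under 0.05, 7 were higher (7.78% of all tested genes) and 3 lower (6.68%). All 3 prolactin libraries lay above all 3 controls for 8 of the 32 (11.3% of all tested genes) and below for 3 (10.4%). The factor called was Fev, a serotonergic ETS factor, at 7.30, 7.17 and 7.16 CPM in control and 9.74, 10.7 and 10.6 CPM in prolactin. The conditions did not overlap for Fev, with a log2 change of 0.52 and an SE of 0.070 (edgeR adjusted p = 0.0147). The call ended when control replicate 2 (0.0641), prolactin replicate 2 (0.135) or prolactin replicate 3 (0.128) was left out, and when the last 2 were summed (0.130), the values being edgeR adjusted p. Below the threshold, the lowest p-values were those of Etv5, an ETS factor (-0.34, adjusted p = 0.0564), and Bhlha15, the secretory-cell factor MIST1 (0.25, adjusted p = 0.0959).

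Hhex (mm10, chr19:37434810-37440731, plus strand), the delta-cell factor, stood at 17.7, 17.1 and 19.0 CPM in control and 18.3, 17.2 and 17.6 CPM in prolactin. The prolactin libraries all lay within the control range, and the log2 change was -0.02 (SE 0.062, interval -0.16 to 0.12, edgeR adjusted p = 0.925). Sst, the delta-cell hormone gene, fell from 2401 ± 134 to 1821 ± 30.6 CPM in the same libraries (log2 change -0.40, edgeR adjusted p = 0.0488). Of 7 delta-cell markers, 1 was called higher (Fam159b), beside 0.652% of all tested genes, and 1 lower (Sst), beside 0.104%. The difference between the changes of Hhex and Sst was not tested. The call of Sst held without control replicate 3 but ended when any other library was left out (0.067 to 0.279 as the edgeR adjusted p), and with prolactin replicates 2 and 3 summed (0.273). It also ended with upper-quartile scaling (0.0515) and with the counts halved (0.0507). That of Fam159b ended without prolactin replicate 2 (0.0593).

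Among progenitor and duct factors, Neurog3 and Sox9 stood above control in every prolactin library, as did 11.3% of all tested genes. Neurog3 (mm10, chr10:62133090-62134763, plus strand), the factor that starts endocrine differentiation, stood at 5.15, 4.16 and 4.99 CPM in control and 7.25, 6.52 and 6.35 CPM in prolactin. The lowest prolactin library was well above the highest control, and the log2 change was 0.49 (SE 0.104, interval 0.26 to 0.73, 1.41-fold, edgeR adjusted p = 0.0782), the largest of the 34. Neurog3 shares 17.7% of its exon bases with a gene on the opposite strand, 2010107G23Rik. The counting took no account of strand, so its count is uncertain in the shared bases. Neurog3 per 1000 CPM of Neurod1, the gene it switches on in development, was 31.5, 22.6 and 28.8 CPM in control and 40.3, 36.2 and 34.3 CPM in prolactin. Neurod1 also shares exon bases with other genes, 7.37% with Cerkl on the same strand and 5.64% with Gm26755 on the opposite strand.

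Sox9, a factor of pancreatic progenitors and adult duct, stood at 6.57, 6.97 and 6.37 CPM in control and 9.23, 7.31 and 8.69 CPM in prolactin. Prolactin replicate 2 was only just above the controls, and the log2 change was 0.34 (SE 0.097, interval 0.12 to 0.56, edgeR adjusted p = 0.162). Duct-cell markers gave 0 called of 9, where 0.652% of all tested genes were called higher and 0.104% lower. Their summed levels were 1514 to 2125 CPM in control and 1760 to 2440 CPM in prolactin. The sum was highest in prolactin replicate 1, where Sox9 and Neurog3 were highest too. The next highest sum was that of control replicate 1 (2125 CPM), above prolactin replicates 2 and 3 (1766 and 1760 CPM). Sox9 and Neurog3 were both lower in control replicate 1 than in either of these. Fibroblast, stellate-cell and pericyte markers were separate between the conditions, summing to 350 to 526 CPM in control and 721 to 889 CPM in prolactin. Of these 10, 2 were called higher (Col1a1 and Col1a2) and 0 lower, beside 0.652% and 0.104% of all tested genes. Endothelial markers were separate too, at 292 to 337 and 342 to 351 CPM, with 1 of 8 called higher (Vwf) and 0 lower, beside the same shares. Calls of Col1a1 and Col1a2 held without control replicate 3 but ended when any other library was left out (adjusted p from 0.0542 to 0.158) and with prolactin replicates 2 and 3 summed (0.143 and 0.167), and that of Col1a2 also with a filter of 1 CPM in 3 libraries (0.052). That of Vwf ended without control replicate 2 (0.0722), prolactin replicate 2 (0.129) or prolactin replicate 3 (0.125), and with the sum (0.127). The part of these cells in the values of Sox9 and Neurog3 was not tested.

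No other tested progenitor or duct factor reached an unadjusted p under 0.05. Prox1, a homeodomain factor of endocrine and duct progenitors, had a log2 change of 0.12 (edgeR adjusted p = 0.376), Sox4, a high-mobility-group factor of endocrine differentiation, 0.15 (adjusted p = 0.461), and Gata6, a zinc finger factor of early pancreas, 0.06 (adjusted p = 0.697). Sox4 shares 54.6% of its exon bases with the opposite-strand gene Gm26735, and Onecut1 shares 52.8% with Gm20649, so their counts are uncertain. Onecut1, a cut-homeodomain factor upstream of Neurog3, was under 1 CPM in every library, and its interval, -0.91 to 0.34 on the log2 scale, leaves wide room either way. Gata4 stood at 1.39, 0.87 and 2.36 CPM in control and 1.42, 1.35 and 1.05 CPM in prolactin. Its control libraries were uneven, and summed acinar-cell markers, which ran from 470 to 2723 CPM in control and from 788 to 1777 CPM in prolactin, were likewise lowest in control replicate 2 and highest in control replicate 3. The part of acinar RNA in the values of Gata4 was not tested.

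In the foregut group, Foxa3 alone was separate between the conditions. Foxa3, a forkhead factor of gut and liver, stood at 11.8, 13.0 and 12.7 CPM in control and 14.97, 14.01 and 14.3 CPM in prolactin. The step was small against the level, with a log2 change of 0.21 (SE 0.065, interval 0.06 to 0.35, edgeR adjusted p = 0.193). Foxa2, the main islet member of the family and an opener of chromatin, stood at 69.7, 80.7 and 74.6 CPM in control and 69.9, 73.9 and 75.2 CPM in prolactin, with a log2 change of -0.04 (adjusted p = 0.831). Foxa1, their close relative, was listed under 1 CPM in every library. Hnf4a, a nuclear receptor mutated in inherited diabetes, had a log2 change of 0.02, Tcf7l2, an effector of Wnt signalling, 0.14, and the ETS factor Etv1 0.04, all with overlapping libraries.

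Set beside each other, the groups had median log2 changes of 0.07 for the beta-cell factors (7 of 8 positive, but 2 of 8 with a median of -0.05 without control replicate 1), 0.07 for the shared endocrine factors (6 of 9), 0.44 for the alpha-cell factors (3 of 3), 0.12 for the tested progenitor and duct factors (5 of 7) and 0.09 for the foregut group (5 of 6). The difference between the groups was not tested. Of the 34 tested factors, 27 had an interval that includes 0, and 28 had an interval within 1.5-fold of control both ways.

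**Figure D4:**
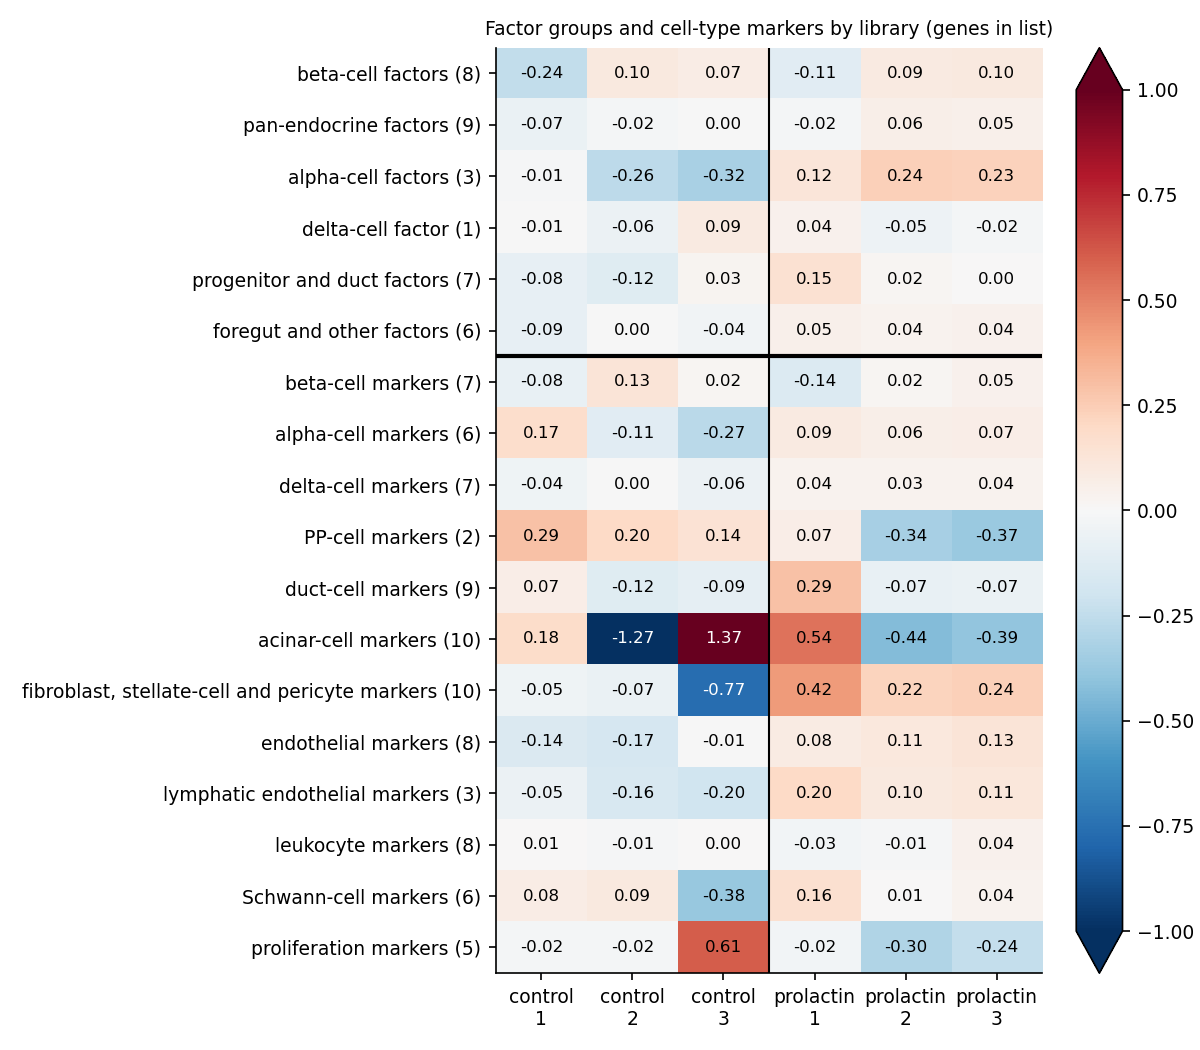
Mean log2(CPM + 0.5) of each gene list minus its mean over the 6 libraries, by library (columns), for the factor groups above the thick line and the cell-type markers below it, with the colour scale capped at 1 either way. The beta-cell factors dip in control replicate 1 (-0.24), the alpha-cell factors are lowest in control replicates 2 and 3 (-0.26 and -0.32), and the acinar and fibroblast markers vary more between libraries than any factor group.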

How the data were processed

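The 6 libraries hold polyadenylated islet RNA, 3 of each condition. Per the file headers, the deposited values are read counts by gene name from featureCounts 2.0.3, run on the GENCODE vM10 annotation. The recorded command has the option for paired reads but none for counting pairs or for strand, so both mates of a pair may be counted. The submitters' processing notes name mm10, SAMtools 1.21, Subread 2.1.0 and DESeq2, while an aligner was not given in the sources used here. In addition, the authors deposited a comparison table with log2 fold changes, a mean signal per gene, a test statistic (a score), p-values and adjusted p-values. DESeq2 with its defaults gave the authors' deposited log2 changes within 3.9e-09 over 40905 genes.

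edgeR 4.0.16 in R 4.3.3, with TMM scaling and a filter (minimum count 10, minimum total 15), tested 23924 of 48397 genes in a two-sided quasi-likelihood test with condition as its only term. P-values were adjusted over all tested genes by Benjamini-Hochberg, with a threshold of 0.05. CPM use TMM-scaled totals, and intervals are at 95%. Group levels by library use log2(CPM + 0.5). At these depths the median SE of a tested factor was 0.083 on the log2 scale (0.0487 to 0.311). The procedure was tested on simulated data.

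The members, roles and lists were chosen with earlier results of these data known. All 35 members were named, and of other lists the called genes with up to 4 of the smallest p-values per list; Cish and Ins2 checked the treatment and the tissue. Genes used for ratios or as marker examples (Gcg) were chosen after their values were seen. Some genes of the lists are not reported here and were left out of the list counts. Alternatives were DESeq2 size factors, upper-quartile scaling, leaving out hormone and mitochondrial genes, no filter, 1 CPM in 3 libraries, DESeq2 1.42.0, limma-voom (limma 3.58.1), a replicate block, each library left out in turn, summing prolactin replicates 2 and 3, and halving the counts.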

Additional observations from a re-analysis of the deposited data

How the results depend on the processing

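The number of factors called, 0 in the fit reported, was 3 with no filter on low counts (Irx1, Irx2 and Neurog3), 5 by DESeq2, and from 0 to 2 when 1 library was left out. It stayed at 0 under DESeq2 size factors, upper-quartile scaling, without hormone and mitochondrial genes, with 1 CPM in 3 libraries, by limma-voom, with prolactin replicates 2 and 3 summed, and with counts halved. Over all genes, 181 were called in the fit reported, 597 with no filter, 1079 by DESeq2, 44 with prolactin replicates 2 and 3 summed, and 40 to 576 with 1 library left out. All calls of factors, under any of these, were of higher values in prolactin. Deviations from the group means correlated at 0.544, 0.326 and 0.0908 between libraries of the same replicate number. Between different numbers they ran from -0.494 (control 1, prolactin 3) to 0.351 (control 2, prolactin 3). The labels do not say if the numbers pair the samples, and the fit reported does not take them as pairs. Whether they do was not tested. With the replicate number as a block, 598 genes and 2 factors were called, Irx1 (adjusted p = 0.0275) and Neurog3 (0.0289). Control replicate 3 correlated slightly better with prolactin replicate 2 (0.0931) than with its own number.

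Of 542 log2 changes of factors recomputed, 26 changed sign, all of factors whose interval includes 0, and 13 became called. St18 turned to 0.0081 with upper-quartile scaling, 0.0034 with 1 CPM in 3 libraries, 0.0011 by limma-voom and 0.0064 with the sum, where Pdx1 turned to -0.0034. The other sign changes came from leaving out 1 library, the log2 changes then running from -0.0837 to 0.0906 for Pdx1, -0.0673 to 0.155 for Nkx6-1, -0.0389 to 0.117 for Mnx1, -0.0725 to 0.293 for Mlxipl, -0.0125 to 0.128 for Foxo1, -0.0184 to 0.146 for Nkx2-2, -0.12 to 0.0481 for Insm1, -0.0485 to 0.0349 for Rfx6, -0.044 to 0.0581 for St18, -0.0526 to 0.0247 for Hhex, -0.0376 to 0.0679 for Hnf4a, -0.0886 to 0.0158 for Foxa2, -0.0162 to 0.122 for Etv1 and -0.553 to 0.161 for Gata4. Irx1 ranged from 0.38 to 0.54, Irx2 from 0.27 to 0.47, Pou3f4 from 0.36 to 0.53 and Neurog3 from 0.40 to 0.55. The cause of these shifts was not tested. Counts were lowest for Pax4, Foxa1, Onecut1 and Gata4; the control libraries of Gata4 also varied by 49.2% (coefficient of variation).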
